A study of Tupaia belangeri chinensis with 36 samples.

Results

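The piRNAs of the cauda epididymis, the tail of the duct in which mature sperm are stored, were compared between the reproductive and the non-reproductive season in 6 small RNA libraries of the Chinese tree shrew, of 36 samples in all. The members were chosen by their labels alone: 3 libraries labelled cauda, reproductive season (CAUDA-R) and 3 labelled cauda, non-reproductive season (CAUDA-NR). The animals were mature males of 1.5 to 2 years with no treatment or genotype named, and each season was collected in 1 month, December 2023 for NR and April 2024 for R, so season and collection date cannot be told apart. The design text calls the 3 samples of a group biological replicates, and p-values measure the spread between these samples. The 3 reproductive-season testis libraries (TESTIS-R) served as the reference for likeness, and the caput (head of the epididymis) and non-reproductive testis libraries were used only where named. The libraries were of whole tissue, so fewer cells of a type and less RNA per cell cannot be told apart.

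piRNAs are small RNAs bound by PIWI proteins. They are made in male germ cells, where they silence transposons and, from the meiotic stage on, come in very large numbers from long precursor transcripts of genomic clusters. The epididymis makes no sperm itself, and its lumen holds sperm and fluid that arrive from the testis. The deposited table lists 59590 piRNA entries by number (pir-tup-1 and so on) with raw counts, and their sequences and positions were not analysed here, so entries are given by name only and what each one derives from is not stated.

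The cauda label was compared with miRNAs of the same libraries. Summed epithelial miRNAs (the miR-200 family, 10 of 10 entries detected) ran from 62715 to 96639 CPM (counts per 1000000 miRNA counts of the library) in the 6 cauda libraries, against 211 to 2237 in TESTIS-R. Summed muscle miRNAs (miR-143, miR-145 and others, 11 of 11 detected) ran from 27040 to 42875 CPM in the cauda. In the caput libraries measured for miRNAs they ran from 5549 to 11776 CPM. Epithelial miRNAs thus separated the cauda libraries from the testis, and muscle miRNAs separated them from the caput. Erythrocyte miRNAs (7 of 7 detected) ran from 96.3 to 289 CPM in NR and from 164 to 303 in R, and leukocyte miRNAs (8 of 8) from 3891 to 8924 in NR and from 2097 to 5377 in R. The miR-486a and miR-486b entries had identical values in each cauda library, so the erythrocyte sum may count the same reads more than once.

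CAUDA-NR 3 stood apart from CAUDA-NR 1 and 2 in most measures below and lay nearer to the R libraries, so means are also given without it. CAUDA-NR libraries 1, 2 and 3 held 114337, 104887 and 67414 piRNA counts, and CAUDA-R libraries 1, 2 and 3 held 83822, 23499 and 58896. The ranges of the seasons overlapped. Per 1000 miRNA counts of the same library, which takes the miRNA total as the measure of depth, there were 17.5, 8.21 and 10.2 piRNA counts in NR and 8.74, 3.33 and 7.45 in R. The mean ratio was 11.98 ± 4.90 for NR and 6.51 ± 2.83 for R (SD, n = 3), with p = 0.2 by an exact permutation test, two-sided as are all such tests here. The NR mean was 12.86 without CAUDA-NR 3. The TESTIS-R libraries held 1342 to 2091 piRNA counts per 1000 miRNA counts. The piRNA to miRNA ratio is 1 of 7 single values compared between the cauda seasons. With 3 libraries against 3 the exact permutation p cannot go below 0.1, and the Benjamini-Hochberg adjusted value over the 7 exact tests was 0.175 where p was 0.1 and 0.2 where p was 0.2.

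The direction of the total rested on a few entries. Without the 10 entries that had the highest mean share over the 6 cauda libraries, the piRNA counts per 1000 miRNA counts averaged 5.52 ± 2.54 for NR and 6.34 ± 2.80 for R (SD, n = 3, exact permutation p = 0.6). Those 10 entries held 65.4%, 66.5% and 24.1% of the counts of CAUDA-NR 1, 2 and 3, and 2.01%, 4.04% and 2.38% of CAUDA-R 1, 2 and 3. They were chosen on these same libraries, so leaving them out took more from NR than from R by that choice. The values without them are a description.

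Few entries were seen in CAUDA-NR 1 and 2, and many in the other cauda libraries. At least 1 count was found for 626, 1916 and 11199 entries in CAUDA-NR 1, 2 and 3, and for 15244, 6800 and 12311 in CAUDA-R 1, 2 and 3. Because detection depends on depth, each library was also taken to 23499 counts, the smallest cauda total. At that depth 438, 1011 and 6753 entries were expected in CAUDA-NR 1, 2 and 3, and 8673, 6800 and 8150 in CAUDA-R 1, 2 and 3. The seasons did not overlap, though CAUDA-NR 3 lay only just below CAUDA-R 2 (NR 2734 ± 3493, R 7874 ± 966, SD, n = 3, exact permutation p = 0.1, the smallest possible). Without CAUDA-NR 3 the NR mean was 724. TESTIS-R libraries taken to the same depth gave 8566 to 8953 entries, a range that holds CAUDA-R 1.

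A few entries dominated CAUDA-NR. The most abundant entry took 19.6%, 21.4% and 14.8% of all piRNA counts in CAUDA-NR 1, 2 and 3, and 0.929%, 1.99% and 1.06% in CAUDA-R 1, 2 and 3. The 10 most abundant entries of each library took 69.3%, 67.9% and 26.5% in NR and 5.74%, 8.35% and 6.89% in R. The NR mean was 54.6% ± 24.3 and the R mean 7.00% ± 1.31 (SD, n = 3 each), the seasons did not overlap, and the exact permutation p was 0.1. Without CAUDA-NR 3 the NR mean was 68.6%. The TESTIS-R libraries had 9.26% to 10.2% in their 10 most abundant entries. Dominance was not particular to the cauda: the same share was 42.9% and 61.4% in CAPUT-NR 1 and 2, and 9.82%, 23.6% and 9.19% in CAPUT-R 1, 2 and 3. In CAUDA-NR 1 and 2 it took 4 entries each to reach 50% of the counts. In CAUDA-NR 3 it took 287, and in CAUDA-R 1, 2 and 3 it took 1147, 752 and 982, against 730 to 806 in TESTIS-R. The inverse Simpson number, the number of equally abundant entries that would give the same concentration, was 10.7, 10.3 and 41.4 in NR and 1357, 736 and 1070 in R. Wilson 95% intervals of the shares that single cauda libraries held in their leading entries and in the testis classes given below were at most 0.573 percentage points to either side and cover counting error only.

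**Figure D1:**
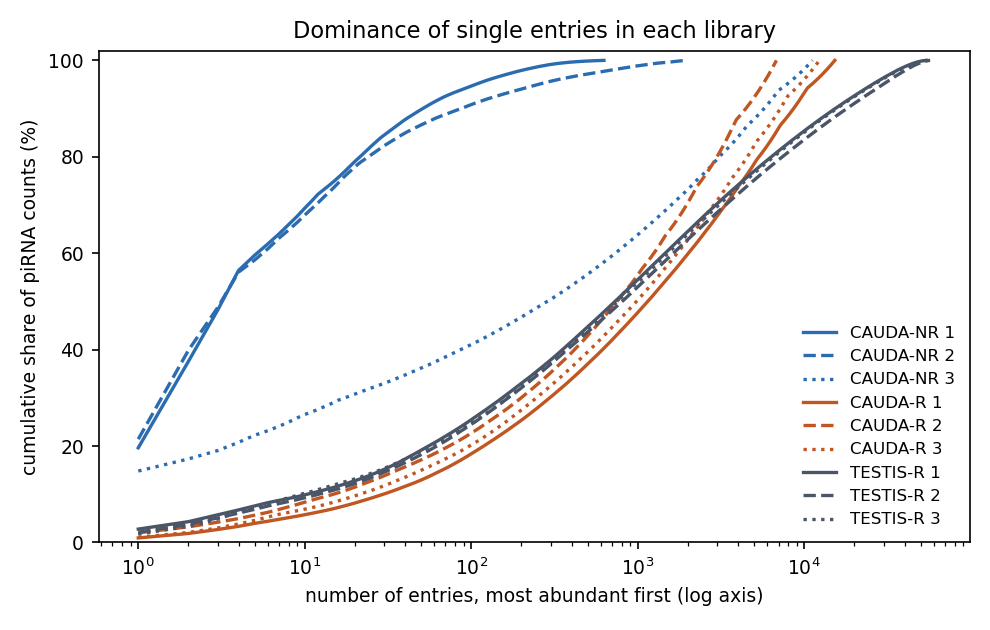
Cumulative share of piRNA counts (percent, y axis) against the number of entries counted from the most abundant (log x axis), with 1 line per library for CAUDA-NR (blue), CAUDA-R (orange) and TESTIS-R (grey). CAUDA-NR 1 and 2 reached 50% with 4 entries each and CAUDA-NR 3 with 287, while the CAUDA-R lines ran beside those of TESTIS-R.

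The 5 entries with the highest mean share in CAUDA-NR, and so chosen for being high there, were minor ones in TESTIS-R. pir-tup-27559, first in CAUDA-NR 2 and 3, had 20486, 22469 and 9985 counts in CAUDA-NR 1, 2 and 3 and 99, 52 and 46 in CAUDA-R. In TESTIS-R it had a mean of 14.0 CPM (here counts per 1000000 piRNA counts of the library) and rank 8337. pir-tup-9537, first in CAUDA-NR 1, had 22442, 19324 and 1689 counts in NR and 39, 34 and 56 in R, and ranked 58877 in TESTIS-R. CAUDA-NR 3 thus held pir-tup-27559 near the share of the other NR libraries, and pir-tup-9537 at 2.51% where they had 19.6% and 18.4%. pir-tup-27554 took 10.7%, 8.89% and 1.75% of NR libraries and at most 0.0340% of R libraries, pir-tup-9531 8.22%, 7.34% and 0.708% against at most 0.0936%, and pir-tup-27562 2.07%, 2.51% and 1.70% against at most 0.149%. All 5 were lower in R in every pair of libraries. In the caput pir-tup-27559 had 109615 and 139671 CPM in the 2 measured NR libraries and 471 to 15160 CPM in the R libraries. In TESTIS-NR 1 and 2 it had 2767 and 5730 CPM, against at most 25.0 in a TESTIS-R library. For pir-tup-9537 these were 485 and 2242 CPM, against at most 1.55. All 5 entries were higher in TESTIS-NR 1 and 2 than in any TESTIS-R library.

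The 5 entries with the highest mean share in CAUDA-R, and so chosen for being high there, were, with 1 exception, among the 6 highest of the reproductive testis. pir-tup-14078, second in TESTIS-R, took 0.824%, 1.24% and 1.06% of CAUDA-R 1, 2 and 3 and 1.32% to 1.73% of TESTIS-R. In CAUDA-NR 1, 2 and 3 it took 0.000875%, 0.0744% and 0.479%, with 1, 78 and 323 counts. pir-tup-12199, ranked 3 in TESTIS-R, had 778, 226 and 550 counts in CAUDA-R and 0, 50 and 202 in CAUDA-NR. pir-tup-40743, the most abundant entry of TESTIS-R, took 0.617%, 0.600% and 0.701% of CAUDA-R and 0%, 0.0238% and 0.476% of CAUDA-NR. Among the cauda libraries, each of these entries was highest in R by share, nearly absent from CAUDA-NR 1 and intermediate in CAUDA-NR 3. pir-tup-22797, pir-tup-20692 and pir-tup-5156, ranked 4 to 6 in TESTIS-R, had shares of 0.243% to 0.739% in CAUDA-R and of 0% to 0.519% in CAUDA-NR. The exception was pir-tup-7302, first in CAUDA-R 1 and 2, with 0.929%, 1.99% and 0.998% in R and 0.335%, 2.20% and 0.878% in NR. Its share in TESTIS-R was at most 0.0154%, it was the most abundant entry of CAPUT-NR 2 and of CAPUT-R 2, and its cauda seasons overlapped.

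**Figure D2:**
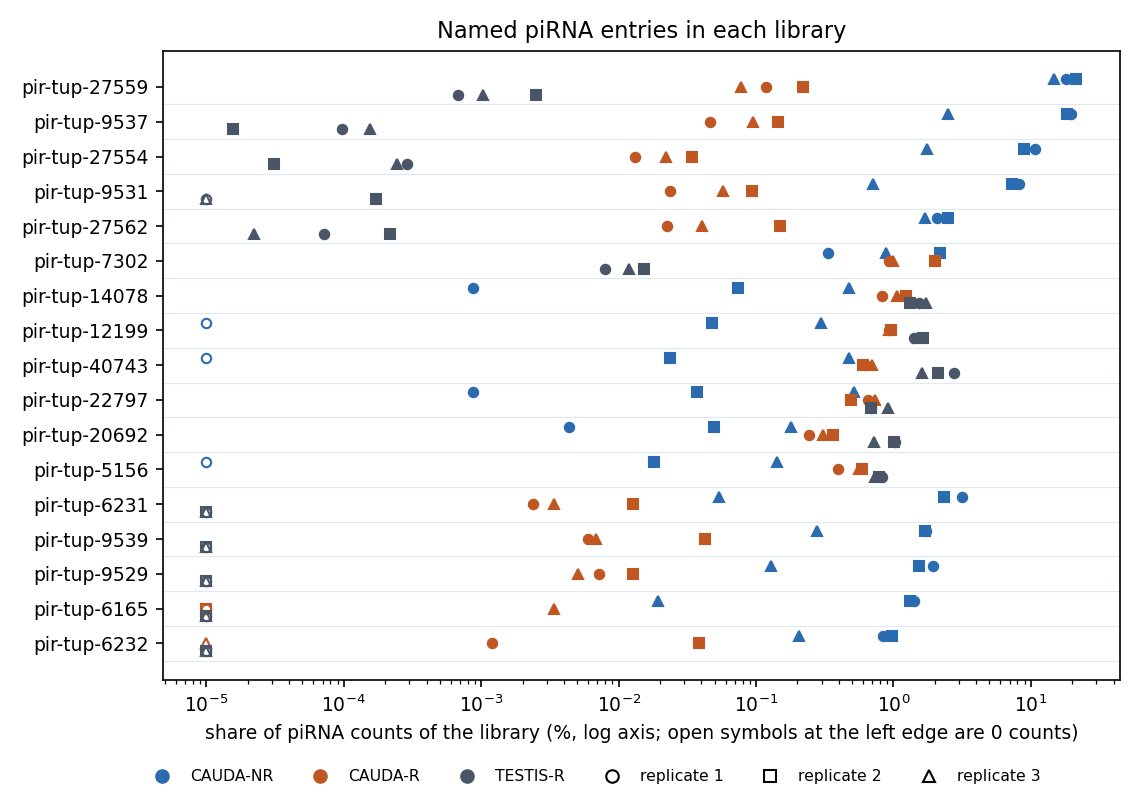
Share of each library's piRNA counts (percent, log x axis) for 17 named entries, with colours for CAUDA-NR, CAUDA-R and TESTIS-R and a symbol for each replicate, open symbols marking 0 counts. The upper 5 entries sit highest in CAUDA-NR, the testis entries from pir-tup-14078 to pir-tup-5156 sit higher in CAUDA-R than in CAUDA-NR except pir-tup-22797, for which CAUDA-NR 3 (0.519%) lies above CAUDA-R 2 (0.494%), and the lower 5 had 0 counts in TESTIS-R.

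Likeness of each cauda library to the reproductive testis was described by Spearman's correlation with each TESTIS-R library over 59578 entries that had at least 1 count in a cauda or TESTIS-R library. The mean over the 3 TESTIS-R libraries was -0.0791, 0.0957 and 0.294 for CAUDA-NR 1, 2 and 3, and 0.358, 0.280 and 0.360 for CAUDA-R 1, 2 and 3. CAUDA-NR 3 lay above CAUDA-R 2, so the seasons overlapped (exact permutation p = 0.2). Without CAUDA-NR 3 the NR mean was 0.00831, against 0.332 in R. The points are entries that share libraries and depth, and a shallow library has many ties at 0. With all libraries thinned to 23499 counts the values were -0.0577, 0.0619 and 0.126 in NR and 0.146, 0.160 and 0.177 in R, which did not overlap (exact permutation p = 0.1), and the TESTIS-R libraries had 0.236 to 0.262 with each other. Among the cauda libraries themselves CAUDA-NR 3 correlated at 0.375 to 0.423 with CAUDA-R and at 0.191 and 0.259 with CAUDA-NR 1 and 2. CAUDA-NR 1 and 2 correlated at 0.436 with each other and at 0.0674 to 0.218 with CAUDA-R. By this measure CAUDA-NR 3 was nearer to the R libraries than to those of its own label.

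Of the 100 most abundant entries of TESTIS-R, 0, 1 and 31 were among the 100 most abundant of CAUDA-NR 1, 2 and 3, and 43, 38 and 48 among those of CAUDA-R 1, 2 and 3. Those 100 testis entries held 0.0341%, 0.769% and 7.70% of the counts of CAUDA-NR 1, 2 and 3, and 12.8%, 13.1% and 15.1% of CAUDA-R, against 24.2% to 25.3% in TESTIS-R itself.

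The entries were then divided by their level in TESTIS-R alone: 11081 with a mean of at least 10 CPM (testis-rich), 48151 below that, and 358 with 0 counts in every TESTIS-R library (testis-absent). How entries came to be listed is not stated, and a testis-absent entry may be listed because another library held it. Of the 358, 345 had counts in a CAUDA-NR library and 166 in a CAUDA-R library. The share and detection of this class, and its p-value, are therefore descriptions that may depend on the cauda values. A count of 0 over the 15121220 TESTIS-R counts allows a level of up to 0.198 CPM, at a floor of 3 counts over the group. Testis-rich entries held 20.5%, 29.0% and 60.5% of CAUDA-NR 1, 2 and 3 and 72.5%, 72.2% and 75.4% of CAUDA-R (NR 36.6% ± 21.1, R 73.3% ± 1.78, SD, n = 3, exact permutation p = 0.1), with no overlap. The NR mean was 24.7% without CAUDA-NR 3. Per 1000 miRNA counts they came to 3.58, 2.38 and 6.17 in NR and 6.33, 2.40 and 5.61 in R, which overlapped. In CAUDA-NR 1 pir-tup-27559 alone made 20486 of the 23400 counts in testis-rich entries. Without the 10 leading cauda entries, which were chosen on these same libraries, the testis-rich amount was 0.0924, 0.303 and 4.43 in CAUDA-NR. In CAUDA-R it was 6.17, 2.28 and 5.45 (exact permutation p = 0.2), also as a description. CAUDA-NR 3 lay within the R range on this scale, and CAUDA-NR 1 and 2 lay below every R library.

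Testis-absent entries went the other way. They are 0.601% of the table, and held 25.2%, 21.0% and 6.78% of the counts of CAUDA-NR 1, 2 and 3 against 0.341%, 1.21% and 0.382% of CAUDA-R 1, 2 and 3. The NR mean was 17.7% ± 9.66 and the R mean 0.644% ± 0.489 (SD, n = 3 each), 27.4-fold higher in NR, with no overlap and an exact permutation p of 0.1. With 1 library left out at a time, the ratio ran from 21.6 without CAUDA-NR 1 to 48.8 without CAUDA-R 2. Without CAUDA-NR 3 it was 35.9. Per 1000 miRNA counts there were 4.42, 1.72 and 0.692 in NR and 0.0298, 0.0402 and 0.0285 in R. Of the 358, 271 were detected in all 3 CAUDA-NR libraries and 30 in all 3 CAUDA-R libraries, and 130 were detected in all of NR and none of R. Over all 59590 entries 139 were detected in all of NR and none of R, and 672 in all of R and none of NR, of which 417 were testis-rich and 1 was testis-absent. The 5 with the largest share in NR, chosen after their values were seen, were pir-tup-6231, pir-tup-9539, pir-tup-9529, pir-tup-6165 and pir-tup-6232. pir-tup-6231 had 3610, 2443 and 36 counts in CAUDA-NR and 2, 3 and 2 in CAUDA-R. pir-tup-6165 had 1616, 1375 and 13 counts in NR and 0, 0 and 2 in R. In each of these 5, CAUDA-NR 3 had the lowest share of the NR libraries and still lay above every R library. The testis-absent share was also 15.3% and 15.0% in CAPUT-NR 1 and 2, and 0.368%, 4.37% and 0.102% in CAPUT-R 1, 2 and 3. In TESTIS-NR 1 and 2 it was 0.901% and 1.67%, with 158 and 220 of the 358 entries detected. The name testis-absent thus refers to TESTIS-R alone.

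**Figure D3:**
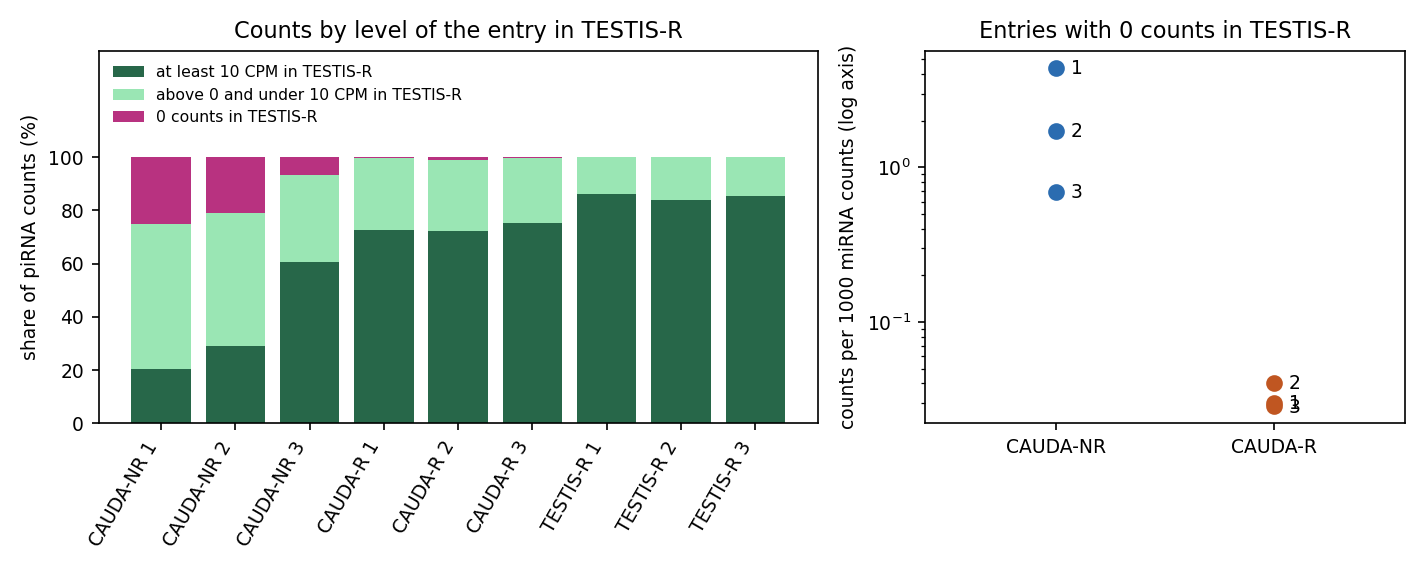
Left, share of piRNA counts (percent, stacked bars) in each cauda and TESTIS-R library by the level of the entry in TESTIS-R. Right, counts in testis-absent entries per 1000 miRNA counts (log axis) for each numbered cauda library: the NR libraries sit between 0.692 and 4.42 and the R libraries between 0.0285 and 0.0402.

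Entries abundant in the testis were detected widely in CAUDA-R and in CAUDA-NR 3, and seldom in CAUDA-NR 1. Of the 94 entries with at least 1000 CPM in TESTIS-R, 18, 85 and 93 were detected in CAUDA-NR 1, 2 and 3, and 94, 92 and 94 in CAUDA-R 1, 2 and 3. Of the 1357 entries with 100 to 1000 CPM, 47, 485 and 1209 were detected in NR and 1275, 1027 and 1252 in R. At equal depth these came to 1.20%, 15.7% and 72.9% in NR and to 82.1%, 75.7% and 82.9% in R. Of the 9630 entries with 10 to 100 CPM, 0.224%, 2.10% and 25.3% were detected at equal depth in NR and 34.4%, 27.8% and 34.2% in R. The order turned for the testis-absent entries, of which 76.7%, 78.6% and 69.6% were detected at equal depth in NR and 14.2%, 25.7% and 14.6% in R. Over all entries 3386 were detected in every CAUDA-R library and 434 in every CAUDA-NR library.

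**Figure D4:**
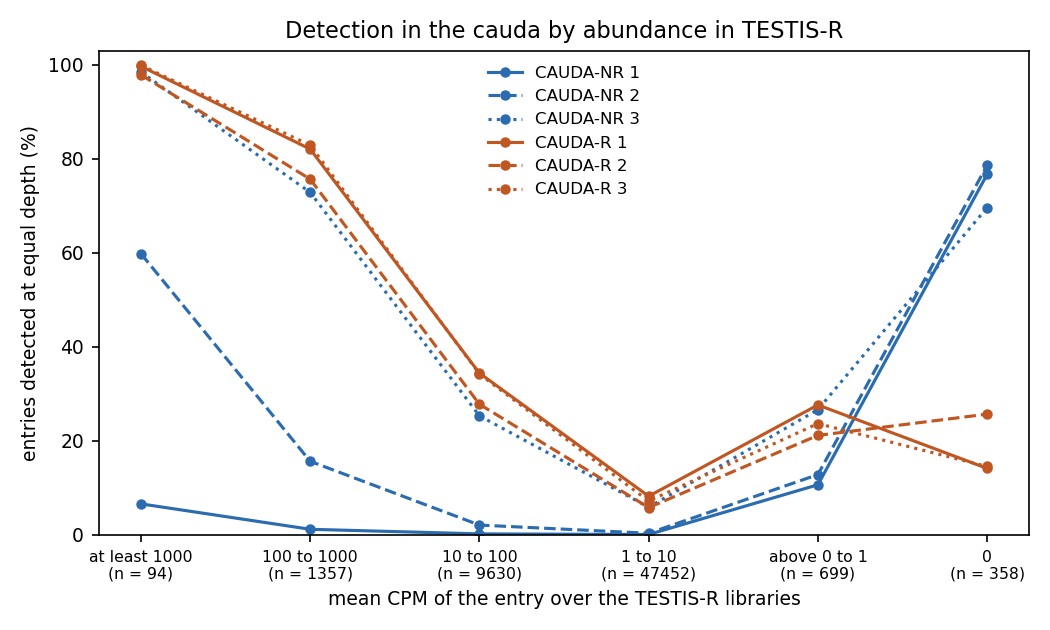
Expected percent of entries with at least 1 count in a draw of 23499 counts (y axis) by the mean CPM of the entry in TESTIS-R (x axis, number of entries in brackets), with 1 line per cauda library. CAUDA-NR 3 runs with the CAUDA-R lines for testis entries and with CAUDA-NR 1 and 2 at 0 counts in TESTIS-R.

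Entry by entry, edgeR's quasi-likelihood test called 76 of 890 entries between the seasons at a Benjamini-Hochberg adjusted p under 0.05, which is 8.54% of those tested. All 76 were lower in R, and 0 were higher, with 9 higher and 105 lower at an unadjusted p under 0.05. DESeq2 called 221 of the 1254 entries to which it gave an adjusted p (17.6%), and 66 of the 221 were higher in R. Of the 76, 58 were testis-absent, 16 were below 10 CPM in TESTIS-R and 2, pir-tup-27559 and pir-tup-27557, were testis-rich. Their log2 changes ran from -13.38 to -5.94 with a median of -8.46, where the median of all entries tested was 1.13. The seasons did not overlap in all 76, and 33 had 0 counts in every CAUDA-R library. Together they held 86.2%, 81.6% and 29.3% of the counts of CAUDA-NR 1, 2 and 3 and 0.385%, 1.23% and 0.453% of CAUDA-R. Only 88 of the 358 testis-absent entries passed the filter on low counts, and 69 of these reached its level in no CAUDA-R library, so they entered through the season in which they were high and had to differ. Their number called is therefore a description.

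The count of calls rested on single libraries. With CAUDA-NR 3 left out there were 794 higher and 175 lower of 1446, 67% of those tested, and all 76 were among them. Of the 722 testis-rich entries in the test of all 6 libraries, 399 were then called higher in R. Leaving out CAUDA-NR 1 gave 115 calls of 1213 entries (9.48%), CAUDA-NR 2 gave 15 of 1210 (1.24%) and CAUDA-R 2 gave 42 of 1251 (3.36%). Leaving out CAUDA-R 1 gave 0 calls of 1055 with edgeR, with 121 entries at an unadjusted p under 0.05. CAUDA-R 3 also gave 0, of 1278, with 127. Scaling also moved it. The TMM factors ran from 0.238 in CAUDA-NR 2 to 1.66 in CAUDA-R 2, and library totals in their place gave 1 higher and 22 lower and a median of 2.08 over all entries.

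The called entries with the largest changes were at or near 0 counts in CAUDA-R. pir-tup-9465 had 687, 1064 and 137 counts in CAUDA-NR 1, 2 and 3 and 0 in all CAUDA-R libraries (edgeR adjusted p 0.000652). By library totals it was at least 336-fold higher in NR, over a floor of 3 counts in the R group, and at least 166-fold without CAUDA-R 1, 217-fold without CAUDA-R 3 and 222.8-fold without CAUDA-NR 2. pir-tup-9579 had 955, 539 and 21 counts in NR and 0 in R (adjusted p 0.000887), at least 255-fold higher in NR. That bound was 126-fold without CAUDA-R 1, 151-fold without CAUDA-NR 1 and 165-fold without CAUDA-R 3. pir-tup-5627 had 502, 321 and 59 counts and pir-tup-27556 had 436, 322 and 47 in NR, and both had 0 in R (adjusted p 0.00125 each). pir-tup-27554, with a log2 change of -10.21 (SE 2.21, adjusted p 0.000887), was the most abundant of the 10 with the largest changes. The other 5 were pir-tup-6165, pir-tup-9512, pir-tup-9511, pir-tup-6231 and pir-tup-5690, with log2 changes of -11.31 to -10.02. Leaving out CAUDA-R 1 or CAUDA-R 3 took the adjusted p of all 10 above 0.05.

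Of the 722 testis-rich entries tested, edgeR with TMM scaling called 0 higher in R. DESeq2 called 45 of them higher, edgeR with DESeq2 size factors 4, edgeR with library totals 1 and edgeR in a fit of all measured piRNA libraries 6. The filter on low counts bears on their direction: 584 of the 722 reached its level in all 3 CAUDA-R libraries and in fewer than 3 CAUDA-NR libraries, and 157 reached it in no CAUDA-NR library. As a description of entries that passed largely through R, 95.6% had a positive log2 change, with a median of 1.36. Every R library lay above every NR library for 233 of the 722 in TMM-scaled CPM and for 445 by library totals. Over all 890 entries tested, R lay above NR without overlap for 239 (26.9%) in TMM-scaled CPM and for 462 by library totals, and NR lay above R for 122 (13.7%) and 113. pir-tup-12199 had a log2 change of 1.83 (SE 1.64) and pir-tup-40743 one of 1.07 (SE 1.63), both with an edgeR adjusted p of 0.823. pir-tup-7302 had a log2 change of -2.11 (SE 1.58) with the same edgeR adjusted p, while by library totals it had a mean of 13064 CPM in R (SD 5944, n = 3) against 11375 in NR (SD 9590, n = 3), so its direction turned with the scaling.

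**Figure D5:**
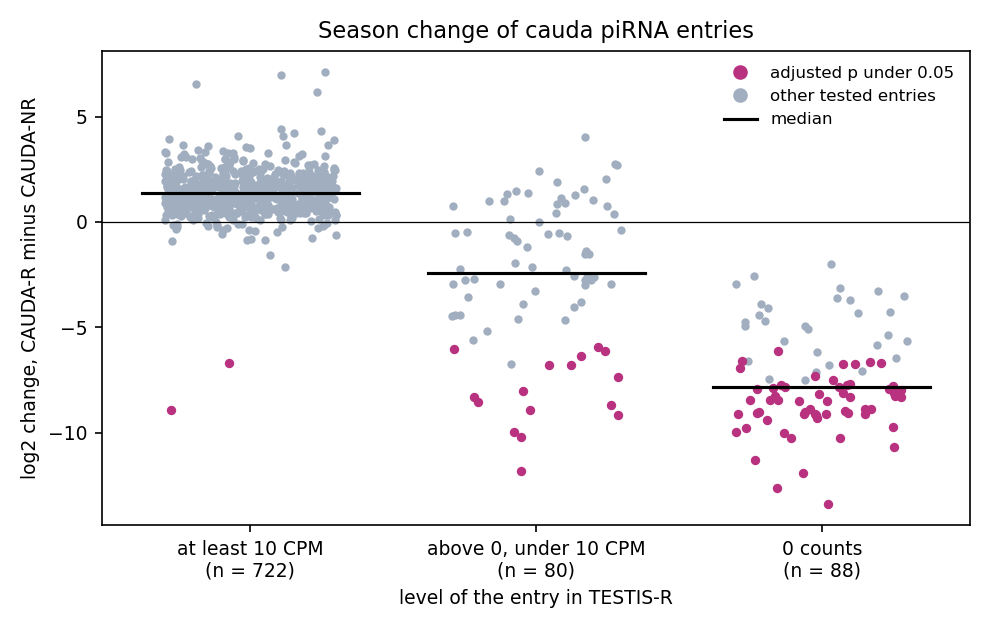
Log2 change (CAUDA-R minus CAUDA-NR, TMM scaling, y axis) of each of the 890 tested entries, grouped by level in TESTIS-R, with called entries in magenta and a line at each median. The medians were 1.36, -2.42 and -7.83 from testis-rich to testis-absent entries, and the called entries all lie below 0.

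Values of germ cell RNA in the same tissue are given beside these as descriptions, with no test. miR-34 and miR-449 miRNAs, abundant in meiotic and later germ cells and in ciliated cells, summed to 325, 324 and 674 CPM of the miRNA counts in CAUDA-NR 1, 2 and 3, and to 1254, 579 and 980 in CAUDA-R, with 6 of 6 entries detected in the cauda and 5713 to 7994 CPM in TESTIS-R. The seasons overlapped, with CAUDA-NR 3 above CAUDA-R 2. Of 5 miRNAs listed, 4 were found in the table. The entry mmu-miR-449b was seen in CAUDA-R 1 alone of the cauda libraries, at 0.104 CPM, and in no TESTIS-R library. The miR-449a arm mmu-miR-449a-5p was at 0, 0.704 and 151 CPM across CAUDA-NR 1, 2 and 3 and at 305, 105 and 216 across CAUDA-R 1, 2 and 3, so CAUDA-NR 3 again lay within the R range. In the RNA-seq libraries of the cauda, 482 testis genes (mean of at least 20 CPM in TESTIS-R and median under 1 CPM in the caput) held 0.0285%, 0.0309% and 0.0342% of the counts in CAUDA-NR 1, 2 and 3 and 0.0842%, 0.0394% and 0.0476% in CAUDA-R, against 3.26% to 3.37% in TESTIS-R. The part of germ cell or sperm RNA in the piRNA differences was not tested.

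Counts of piRNA clusters, genomic regions that give rise to piRNAs, are deposited in a separate table. They came to 0.299 and 0.382 times the piRNA counts in CAUDA-NR 1 and 2, and to 1.65, 1.52 and 1.55 times in CAUDA-R 1, 2 and 3, where TESTIS-R had 1.14 in each library. The column of CAUDA-NR 3 in the cluster table is the mean of the other 2 and was left out. The way clusters were counted is not stated in the labels.

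The season change of the cauda was set against those of the other tissues as an interaction. Against the caput 0 of 1675 entries were called by edgeR (0% of those tested), with 25 at an unadjusted p under 0.05. The measured caput libraries held 14332 and 13360 piRNA counts in NR and 43525, 9367 and 195386 in R. At such depth the lack of calls does not show that the changes were alike. Against the testis 11 of 3235 were called, 0.34% of those tested, 9 with a higher and 2 with a lower value of the cauda change minus the testis change. Scaling to miRNA totals turned that to 0 higher and 12 lower of the same 3235. Without CAUDA-NR 3 there were 2011 of 3646 (55.2%), all higher.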

How the data were processed

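Total RNA of whole tissue was made into small RNA libraries, sequenced as single-end reads of 50 nt, and into poly(A) RNA-seq libraries, per the labels. The authors deposited raw counts per piRNA entry, per miRNA and per gene, and expected counts (not whole numbers) per piRNA cluster. Of tools, featureCounts and bedtools appear in the submitters' processing notes, while the aligner, build and piRNA annotation were not given in the sources used here. Members and lists were chosen with earlier results of these data known.

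Columns that equal the mean of the other 2 of their group were left out: the piRNA columns of TESTIS-NR 3 and CAPUT-NR 3, the cluster columns of CAUDA-NR 3, CAPUT-NR 3, TESTIS-NR 3 and CAPUT-R 3, and the miRNA columns of TESTIS-NR 2 and CAPUT-NR 2. All 6 cauda piRNA columns were used. Their totals ran from 23499 to 114337 counts, so entries of a few counts are imprecise, and intervals and floors cover counting error only.

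Detection at equal depth is the expected number of entries in a random draw of 23499 counts. Single values were compared by exact permutation over the 6 cauda libraries. Entries were tested with edgeR 4.0.16 (R 4.3.3) by quasi-likelihood with TMM scaling and filterByExpr, fitted on the 6 cauda libraries. Interactions were fitted on the measured piRNA libraries of the cauda and the caput, or of the cauda and the testis. The p-values were Benjamini-Hochberg adjusted over all entries tested, and the standard error of a log2 change is its size over the square root of F. Called entries are named by the 10 largest changes in each direction with no overlap of seasons and a mean of at least 10 CPM, and other entries by the 5 highest mean shares in CAUDA-NR, CAUDA-R and TESTIS-R. The design text names DESeq2 (1.42.0 here), which was run as an alternative, beside other scalings, filters, leaving out each library and a replicate block. Computations were tested on simulated data.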

Additional observations from a re-analysis of the deposited data

Results flagged for a closer look

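The season change of the cauda differed from that of the testis for 11 of 3235 entries by edgeR's test of the interaction at an adjusted p under 0.05, 9 with a positive and 2 with a negative difference. Of the positive ones, pir-tup-6283 had the smallest p (log2 7.65, edgeR adjusted p 0.0180). It had 3, 9 and 11 counts in CAUDA-NR 1, 2 and 3, 8, 0 and 11 in CAUDA-R 1, 2 and 3, 0 and 11 in TESTIS-NR 1 and 2, and 0 in every TESTIS-R library. Of the negative ones, it was pir-tup-33933 (log2 -14.27, edgeR adjusted p 0.0229), with 1, 9106 and 1 counts in TESTIS-R 1, 2 and 3 and at most 12 in a cauda library, so the reproductive testis level was high in TESTIS-R 2 alone.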

How the results depend on the processing

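Of 61 alternatives for the 7 single values, 59 kept their direction. The other 2 left out the 10 most abundant cauda entries, which reversed the log2 season difference of the piRNA total from -0.93 to 0.19 and of its ratio to miRNA counts from -0.92 to 0.21. Those 10 entries were chosen on the same libraries. The number of entries tested changed with the setting. The 76 edgeR calls of 890 entries (8.54%) became 23 of 890 (2.58%) with library totals. With no filter there were 0 (of 25130 entries, 628 at an unadjusted p under 0.05). A fit of all measured piRNA libraries gave 267 of 3357 (7.95%), and DESeq2 gave 221 of 1254 (17.6%). With 1 cauda library left out the calls ran from 0 to 969 of 1446 (67.0%). The replicate block gave 42 calls of 890 (4.72%). Same-numbered cauda libraries had correlations of their deviations of -0.0693, 0.230 and 0.169. CAUDA-NR 1 correlated best with CAUDA-R 2 (0.164), CAUDA-NR 2 with the same-numbered CAUDA-R 2, and CAUDA-NR 3 with CAUDA-R 1 (0.212). The labels do not say that numbers pair animals, and so few libraries cannot decide it. Against the caput, miRNA totals gave 1 call in place of 0. Against the testis, library totals gave 39 calls of 3235 (1.21%), the replicate block 2 of 3235, and leaving out CAUDA-NR 3 gave 2011 of 3646 (55.2%). The cause was not tested. CAUDA-R 2, with 23499 counts, is the cauda library in which depth limits detection most.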

Other observations

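The most abundant entries of CAUDA-NR had neighbouring numbers in their names. Of the 20 most abundant entries, 14, 16 and 15 in CAUDA-NR 1, 2 and 3 had another of the 20 within 10 numbers, against 3, 6 and 4 in CAUDA-R 1, 2 and 3 and 2, 0 and 0 in TESTIS-R 1, 2 and 3. Of the 76 called entries, 65 had another called entry within 10 numbers. What the order of the numbers stands for is not stated in the labels or files, and this describes names only.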
